A study of Mus musculus with 12 samples.

Results

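The comparison described here is that of WT CD4 T cells stimulated for 24 h with the same kind of cells stimulated for 6 h. It was taken by time label from a series of 12 one-colour arrays and uses 4 of them, 2 at 24 h and 2 at 6 h. The cells were naive CD4 T cells of WT C57BL/6 mice, cultured in RPMI with serum. Stimulation used soluble anti-CD3 at 0.25 ug/mL and anti-CD28 at 0.5 ug/mL, captured by goat anti-hamster antibodies bound to the plate. The series also holds 2 unstimulated WT arrays (0 h) and the same 3 times for cells of the same strain carrying a PP2Ac transgene (PP2Ac is the catalytic part of the phosphatase PP2A), with 2 arrays each. The source labels of the WT arrays read "WT transgenic", whereas their titles and the series text say WT, and they are called WT here. Neither the promoter of the transgene nor the age of the mice is given in the sources used here. In each pair, 1 array carries the mark Rep in its title, and the other is called unmarked. No label says that the arrays of a pair came from separate mice or cultures, so the p-values reflect the spread between arrays alone, which may be technical. That spread was pooled over all 12 arrays. The WT pairs lay further apart than the transgenic pairs, with root mean square differences of 0.31 to 0.34 against 0.21 to 0.26.

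A naive CD4 T cell is quiescent. Ligation of its antigen receptor together with CD28 starts, within the first hours, a wave of transcription through calcineurin and NFAT, MAP kinases and NF-kB, together with the growth programme that follows MYC. Cells then leave G1, and genes of DNA replication and, later, of mitosis come on, many of them under E2F factors and, for the mitotic genes, the DREAM and MuvB complexes. Negative regulators such as the DUSP phosphatases, Sprouty proteins and A20 belong to the early wave and restrain the pathways that induce them.

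The deposited table gives 1 log2 value for each of 28853 probe sets on each array. The 23410 probe sets with a gene symbol were tested in a limma fit of all 12 arrays. From 6 h to 24 h, 1753 probe sets were higher in WT cells (7.49% of those tested) and 1371 were lower (5.86%), at a Benjamini-Hochberg adjusted p under 0.05. With each array centred on its median in place of quantile normalisation the counts were 1725 higher and 861 lower. They depended on the arrays that gave the spread: WT arrays alone gave 1147 and 608, and the 4 compared arrays 587 and 171. The difference was at least 1 on the log2 scale for 545 of the higher and 117 of the lower probe sets. With 1 probe set per gene, 1579 of 19938 genes were higher (7.92%) and 1193 were lower (5.98%). These per-gene shares, and the median log2 difference of -0.03 over all genes, are the background for the gene lists below. A gene named as higher or lower passed this limma test, and differences are log2 values ± SE with n = 2 arrays per group.

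T cell markers were high on all 6 WT arrays, with list means from 13.00 to 13.27 on the log2 scale and Cd4 between 13.31 and 13.74. The unmarked WT arrays stood apart in neutrophil transcripts. Over 13 neutrophil markers their means were 12.44 at 0 h, 11.68 at 6 h and 11.39 at 24 h, against 8.97, 8.65 and 7.89 on the arrays marked Rep. Of these markers, 0 passed the test between 6 h and 24 h (median difference -0.54). Of 16 monocyte and macrophage markers, 0 passed either. Their means too were higher on the unmarked arrays, at 9.31, 9.26 and 9.41, against 8.26, 8.01 and 7.93 on those marked Rep. The part of these cells in any result was not tested. Where the 3 unmarked WT arrays were left out, 375 probe sets were called higher and 143 lower, and where the 3 arrays marked Rep were left out, 881 and 513. Every one of the 1753 higher and the 1371 lower probe sets had the same sign within each mark. The calls were made from these same arrays, so the shared sign follows largely from the selection and is no separate support. Samples of the same mark deviated together in every pair of groups, and with the mark as a block the counts were 2239 higher and 2059 lower.

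**Figure D1:**
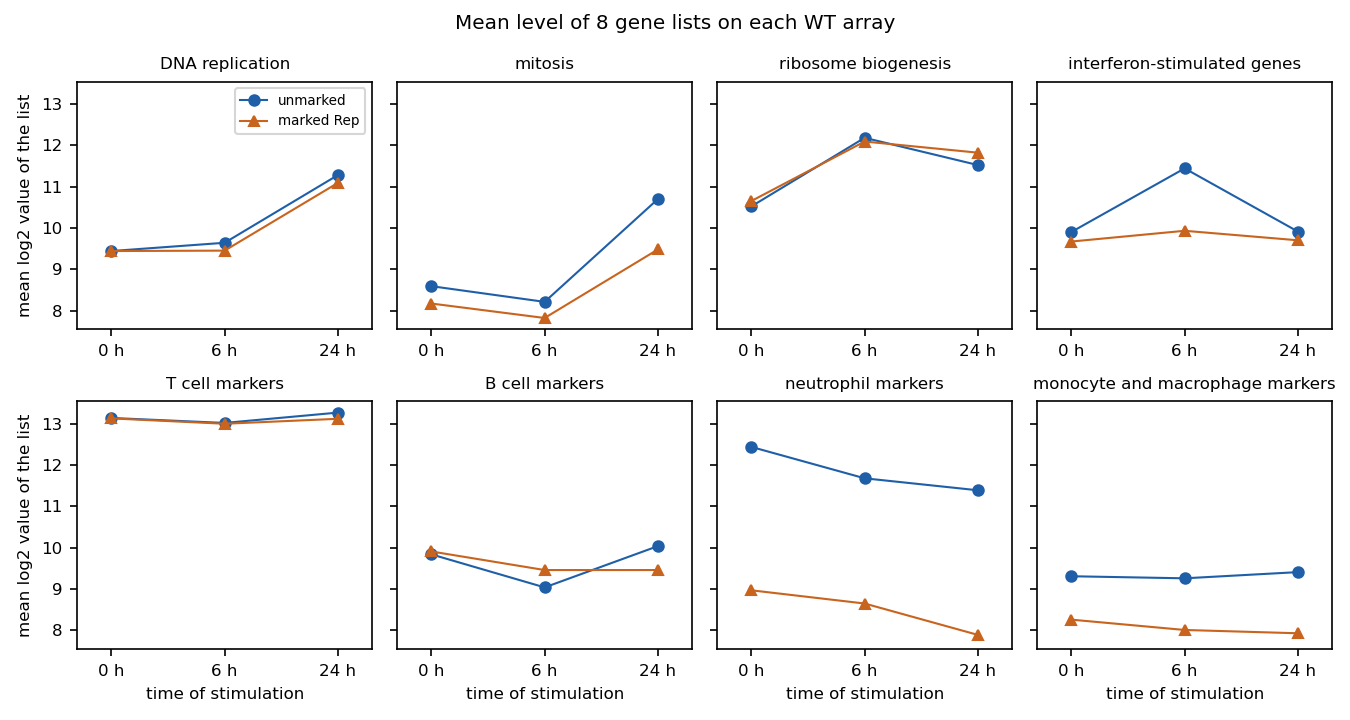
Mean log2 value of 8 gene lists on each WT array (vertical axis) against the time of stimulation (horizontal axis), with circles for the unmarked arrays and triangles for those marked Rep; lines join arrays of the same mark. Both marks rise in DNA replication genes at 24 h, and mitosis genes reach 10.70 on the unmarked and 9.48 on the marked array. Interferon-stimulated genes stand out on the unmarked 6 h array alone (11.44). Neutrophil markers, and by less monocyte and macrophage markers, separate the marks at every time.

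Genes of DNA replication rose. Of 50 members measured, 46 were higher at 24 h, 0 were lower, and the median difference was 1.56. All 50 had a positive difference, and the median was 1.55 within the unmarked arrays and 1.56 within those marked Rep. Orc1, a subunit of the origin recognition complex, read 6.34 and 5.89 on the 6 h arrays (unmarked first, as throughout) and 9.43 and 9.78 on the 24 h arrays. Both 24 h values lay far above both 6 h values, and the difference was 3.49 ± 0.23 (adjusted p = 0.000221). Chek1, the checkpoint kinase of the S phase, went from 8.19 and 7.89 to 11.27 and 11.53, a difference of 3.36 ± 0.18 (adjusted p = 0.000159). Mcm3 and Mcm4, subunits of the replicative helicase, differed by 2.00 ± 0.13 and 1.56 ± 0.10. Cdc6, which loads that helicase, differed by 2.86 and Mcm10, which activates it, by 3.18. Rpa3, a subunit of the protein that coats single-stranded DNA, differed by 1.32 ± 0.09. The sliding clamp Pcna was already high at 6 h (13.41 and 13.47) and read 13.85 and 13.75 at 24 h, a difference of 0.36 ± 0.10 that did not pass the test (adjusted p = 0.0533), but passed under 4 alternatives, with adjusted p from 0.0237 to 0.0487. Dtl, which targets the licensing factor Cdt1 for destruction, had the second largest difference of the comparison, from 8.06 and 7.46 to 11.69 and 11.74 (3.96 ± 0.27, adjusted p = 0.000222). Tcf19, a nuclear factor whose level peaks near the start of S phase, had the largest, from 8.0 and 7.83 to 12.25 and 11.52 (3.97 ± 0.31).

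Since these genes rose together, the bases upstream of their RefSeq start sites (build GRCm38.p6) were searched for the E2F site, spelled TTTCCCGC or TTTGGCGC on either strand. Within the 250 bases before the start, 6 of 45 promoters of the replication genes called higher held a match (13.3%), against 427 of 32851 promoters in the table (1.30%) and 348 of 19116 promoters of the genes tested (1.82%). A match describes letters only. The 3 replication genes with a match and the smallest p, outside a chromosome left out by design, were Mcm5 (chr8:75109304-75109423, plus strand), Mcm7 (chr5:138171985-138172104, minus strand) and Cdc6 (chr11:98907957-98908076, plus strand). Shown 5′ to 3′ are 120 upstream bases of each, with the match in capitals.
Mcm5: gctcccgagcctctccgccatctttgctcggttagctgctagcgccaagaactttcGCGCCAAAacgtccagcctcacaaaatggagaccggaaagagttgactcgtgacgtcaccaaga
Mcm7: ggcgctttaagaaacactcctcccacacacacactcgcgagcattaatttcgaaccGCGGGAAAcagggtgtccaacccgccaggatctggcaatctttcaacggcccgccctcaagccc
Cdc6: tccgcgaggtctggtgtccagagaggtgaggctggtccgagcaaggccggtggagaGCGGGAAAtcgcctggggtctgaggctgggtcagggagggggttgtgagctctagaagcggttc
The match ends 141 bases before the start in Mcm5, 157 in Mcm7 and 130 in Cdc6. Mcm5 and Mcm7, subunits of the same helicase, differed by 1.38 ± 0.10 and 1.56 ± 0.16.

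Genes that drive entry into S phase were mostly higher. Of 22 cyclins, kinases and E2F proteins of G1, 15 were higher and 1 was lower (median 0.84), against 5 and 1 without the unmarked arrays and 10 and 1 without those marked Rep. Ccne1 and Ccne2, the E-type cyclins, differed by 2.81 ± 0.35 and 2.73 ± 0.26. Among the E2F factors, E2f1 went from 8.91 and 8.92 to 11.54 and 11.26 (2.49 ± 0.16, adjusted p = 0.000221), and the late-acting repressor E2f8 from 8.29 and 7.05 to 11.55 and 10.31 (3.26 ± 0.60). E2f5, a repressor of quiescent cells, moved the other way, from 9.71 and 9.85 to 8.55 and 8.80 (-1.11 ± 0.12, adjusted p = 0.000873). The D-type cyclin Ccnd3 was higher by 1.29 ± 0.12. Of 7 CDK inhibitors, 1 was higher, Cdkn2d (0.78 ± 0.21), and 0 were without either set of 3 arrays. Cdkn1b, which encodes the quiescence inhibitor p27, read 11.49 and 11.93 at 6 h and 12.12 and 11.79 at 24 h, so that the groups overlapped (adjusted p = 0.36).

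Enzymes of DNA precursor supply and histones are described next. Of 26 genes of nucleotide and one-carbon metabolism, 6 were higher and 3 lower (median -0.03), against 2 and 0 without the unmarked arrays and 5 and 1 without those marked Rep, and the members that rose include the deoxynucleotide enzymes. Rrm2, the regulated subunit of ribonucleotide reductase, went from 8.90 and 8.24 to 12.77 and 11.87 (3.75 ± 0.44, adjusted p = 0.00142). Tyms, thymidylate synthase, differed by 2.77 ± 0.34, Rrm1 by 1.85 ± 0.27 and Dut, which removes dUTP, by 1.74 ± 0.16. Thymidine kinase Tk1 has probe sets that differ in size, 3.63 for one and 2.67 for the other, both called. Among the 3 that fell were Cad, the first enzyme of pyrimidine synthesis (-0.46 ± 0.10), and Impdh1 of guanine nucleotide synthesis (-0.53 ± 0.11). Of 23 replication-dependent histone genes measured, 9 were higher and 0 lower, with a median of 1.43 within the unmarked arrays and 0.35 within those marked Rep (8 called without the arrays marked Rep and 1 without the unmarked ones). H2bc3 went from 9.16 and 9.0 to 12.26 and 11.07 (2.58 ± 0.49). Histone genes are near-identical copies, so a probe set may read several of them.

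Mitotic genes had the larger median, 2.23, and the wider spread between arrays. Of 61 members measured, 37 were higher and 0 lower in the fit without the block, and 50 were higher and 1 lower with it. The list mean at 24 h was 10.70 on the unmarked and 9.48 on the marked array, against 8.21 and 7.82 at 6 h. Within the marks, the median difference was 2.69 and 1.71. Where the 3 unmarked WT arrays were left out, 2 of the 61 were called, and 17 where the 3 marked Rep were left out, while 30 and 36 of the 50 replication genes were called in those fits. Bub1, a kinase of the spindle checkpoint, went from 7.68 and 6.49 to 11.37 and 9.94 (3.57 ± 0.67, adjusted p = 0.00943). Ncapg, a condensin subunit, went from 6.69 and 6.18 to 10.61 and 9.34 (3.54 ± 0.61). The proliferation marker Mki67 read 9.51 and 8.71 at 6 h and 12.32 and 10.69 at 24 h (2.40 ± 0.66, adjusted p = 0.0423). In each of these the groups did not overlap, and the unmarked array was the higher of the pair at both times. Cyclin A (Ccna2), Cdk1 and Aurkb differed by 2.98 ± 0.60, 3.04 ± 0.54 and 3.19 ± 0.58. Cenpk and Cenph, kinetochore subunits with closer pairs, differed by 3.25 ± 0.29 and 2.81 ± 0.36, and Mybl2, a MuvB partner, by 2.36 ± 0.30. Plk1, a kinase of mitotic entry, read 9.39 and 8.46 against 12.13 and 9.90 and did not pass (2.09 ± 0.83, adjusted p = 0.141), but passed with the block. The member that was lower with the block was the securin Pttg1, at -0.26 ± 0.09 without it.

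The CHR element of mitotic promoters, TTTGAA on either strand, was found before the start of 11 of 35 promoters of the mitotic genes called higher (31.4%), against 16.0% of all promoters and 13.4% of those of tested genes. The CCAAT box, which can occur beside it, was found in 21 of these 35 (60.0%), against 33.8% and 34.6%. Windows of 120 upstream bases show where the CHR match lies. The 3 called members with a match and the smallest p, with the same chromosome left out, were Ncapg2 (chr12:116405316-116405435, plus strand), Smc2 (chr4:52439019-52439138, plus strand) and Ncapg (chr5:45669805-45669924, plus strand), all condensin subunits.
Ncapg2: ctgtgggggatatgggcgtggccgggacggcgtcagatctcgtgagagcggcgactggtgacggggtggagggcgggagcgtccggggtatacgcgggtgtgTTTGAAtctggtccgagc
Smc2: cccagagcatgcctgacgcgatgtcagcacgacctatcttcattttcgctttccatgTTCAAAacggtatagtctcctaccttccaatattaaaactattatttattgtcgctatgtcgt
Ncapg: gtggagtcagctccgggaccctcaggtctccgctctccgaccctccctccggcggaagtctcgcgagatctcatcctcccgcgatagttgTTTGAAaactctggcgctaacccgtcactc
The match ends 12 bases before the start in Ncapg2, 24 in Ncapg and 139 in Smc2. Their differences were 2.98 ± 0.38, 3.54 ± 0.61 and 1.39 ± 0.22.

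**Figure D2:**
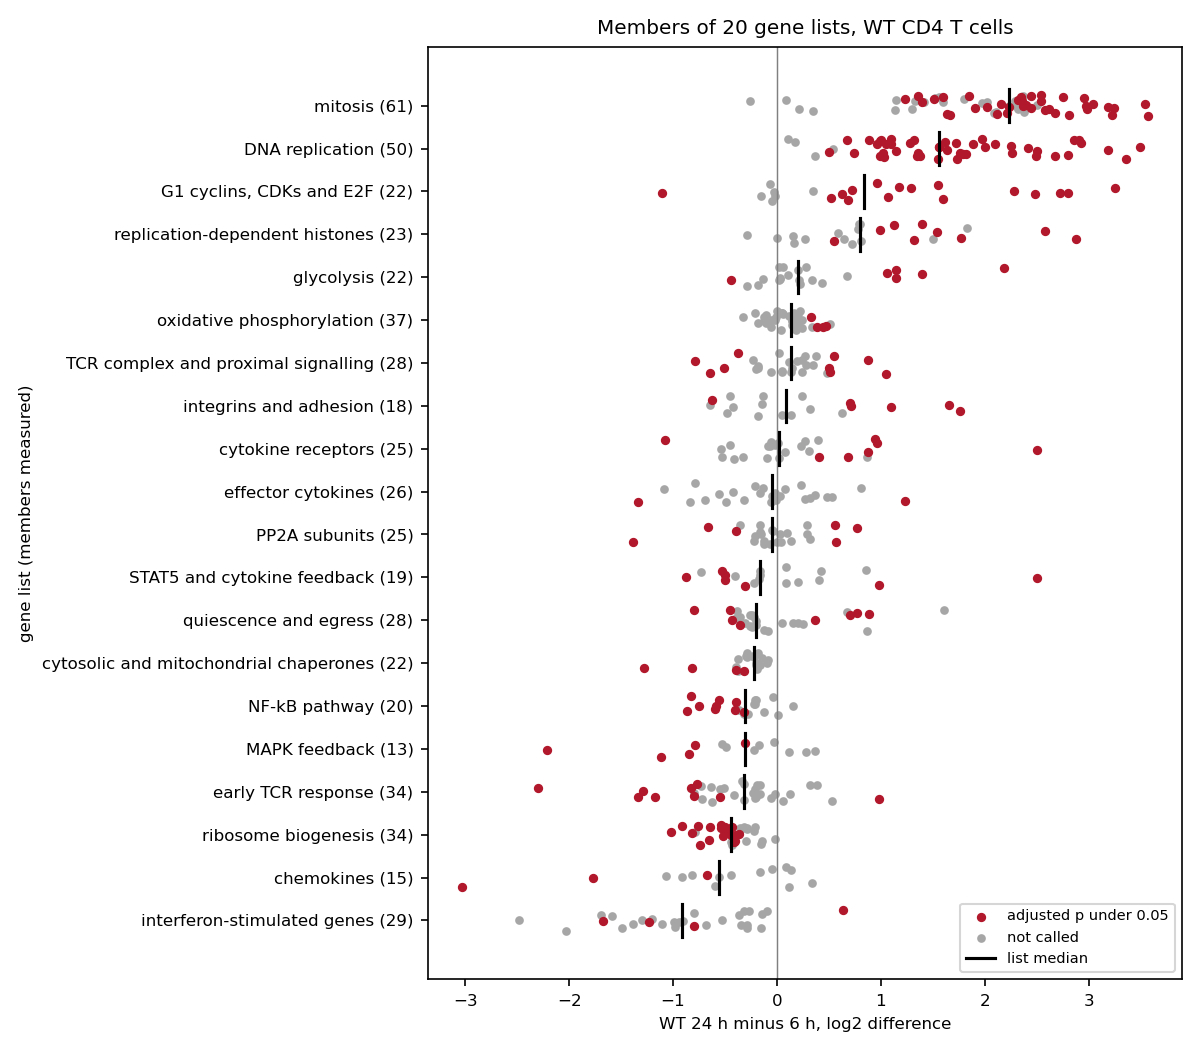
Log2 difference of WT 24 h minus 6 h (horizontal axis) for every measured member of 20 gene lists (vertical axis, number measured in brackets), red where the adjusted p was under 0.05 and grey otherwise, with a black bar at the list median. The medians run from -0.91 for interferon-stimulated genes, of which 3 were called lower and 1 higher, to 2.23 for mitosis.

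Of 34 genes of the early antigen receptor response, 8 were lower and 1 was higher (median -0.32), and 11 and 2 with the block. Without the 3 unmarked arrays 3 were lower and 0 higher, and without the 3 marked Rep 4 and 2. Nr4a2, an orphan nuclear receptor induced by receptor signals, was not higher at 6 h than at 0 h. It averaged 11.46 at 0 h and 11.48 at 6 h, with the unmarked 6 h array lower at 10.96. At 24 h it read 8.98 and 9.39 (24 h minus 6 h, -2.30 ± 0.37, adjusted p = 0.00483). Its relative Nr4a1 went from 13.60 and 13.84 to 13.05 and 12.80 (-0.80 ± 0.16). Fosl2, an AP-1 subunit that averaged 11.96 at 0 h and 11.56 at 6 h, differed by -1.34 ± 0.19. The stress gene Gadd45b, which had risen from 12.19 at 0 h to 13.19 at 6 h, differed by -1.29 ± 0.21. The phosphatase regulator Ppp1r15a differed by -1.17 ± 0.22. The exception was Egr3, which with Egr2 restrains T cell activation and which rose from 10.15 and 10.64 to 11.54 and 11.21 (0.98 ± 0.16, adjusted p = 0.00567). Egr2 read 11.27 and 11.68 at 6 h and 11.85 and 11.88 at 24 h and did not pass (0.39 ± 0.17, adjusted p = 0.172). Fos was low and overlapped between the times (8.94 and 9.65 against 9.23 and 9.03). Cd69, an early surface marker, read 13.50 and 13.83 against 12.55 and 13.51, lower at 24 h within each mark. It did not pass without the block (-0.64 ± 0.31, adjusted p = 0.225) and passed with it (adjusted p = 0.0448). Irf4 and Myc were lower by 0.55 and 0.31 at 24 h without passing the test (adjusted p = 0.078 and 0.362), and remained well above their 0 h level, by 2.44 and 1.92.

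Brakes of the receptor pathways were among the genes that fell. Of 13 MAP kinase feedback genes, 5 were lower and 0 higher (median -0.31), and 2 were lower without either set of 3 arrays. Spry1, a Sprouty inhibitor of the pathway, had the clearest peak, with 9.19 and 8.68 at 0 h, 12.48 and 12.49 at 6 h, and 10.19 and 10.36 at 24 h. Its 24 h minus 6 h difference was -2.21 ± 0.17 (adjusted p = 0.000303). The phosphatases Dusp5, Dusp1, Dusp4 and Dusp2 differed by -1.11, -0.85, -0.79 and -0.31. Dusp2 lay just inside the threshold (adjusted p = 0.0434) and was not called with median centring or array weights. Neither Dusp2 nor Dusp4 (adjusted p = 0.0255) was called with WT arrays alone. Dusp5, Dusp4 and Dusp2 had risen by 6 h, whereas Dusp1 was highest at 0 h (mean 12.63, against 12.21 at 6 h). In the NF-kB pathway 9 of 20 genes were lower and 0 higher (median -0.31). Relb and Nfkb2, subunits of the alternative pathway, differed by -0.87 ± 0.14 and -0.60 ± 0.09, Malt1, a protease of the activating complex, by -0.75 ± 0.12, and Tnfaip3, which encodes A20, by -0.83 ± 0.14. Relb, Nfkb2 and Malt1 had risen by 6 h, whereas Tnfaip3 was highest at 0 h (mean 12.61, against 12.25 at 6 h). Without the 3 unmarked arrays the NF-kB count was 0, and without the 3 marked Rep it was 2.

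The CRE element, TGACGTCA, was found upstream of 1 of the 9 promoters of the early response genes called lower, that of Ppp1r15a (chr7:45526269-45526388, minus strand), 4 bases before the start. It is shown because it is the single CRE match in that list; 1.55% of all promoters and 2.03% of those of tested genes hold one. The same 9 promoters held 1 match to the E2F site, 1 to the AP-1 site (TGANTCA) and 0 to the CArG box.
Ppp1r15a: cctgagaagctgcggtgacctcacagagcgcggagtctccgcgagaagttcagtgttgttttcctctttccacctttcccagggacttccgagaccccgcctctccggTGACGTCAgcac

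Each probe set called between 6 h and 24 h was placed in a class by its call between 0 h and 6 h. The 2 calls share the 6 h arrays, so a class describes a course and is not a separate test. In WT 6 h minus 0 h, 2955 probe sets were called higher (12.6%) and 3254 lower (13.9%). Against 0 h at 24 h, 3015 were higher (12.9%) and 3230 lower (13.8%). Of the 1753 that rose after 6 h, 920 had fallen by 6 h and recovered, 750 had not been called at 6 h and are called late, and 83 rose in both steps. Of the 1371 that fell after 6 h, 655 had risen by 6 h and are called transient, 623 fell late and 93 fell in both steps. At 24 h, 409 of the 655 transient probe sets were not called against 0 h, 230 were still above it and 16 were below it. Of the 920 recovering, 596 were not called against 0 h, 267 were still below and 57 above. The E2F site was found before the start of 6.19% of promoters of the late class, 6.85% of the progressive class (5 of 73) and 11.4% of the mitotic genes called higher (4 of 35), against 1.57% in the transient and 1.65% in the recovering class.

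Transient genes were varied in function. Txnrd3, a thioredoxin reductase, read 8.26 and 8.52 at 0 h, 10.84 and 10.73 at 6 h, and 8.28 and 8.89 at 24 h (24 h minus 6 h, -2.20 ± 0.18). Sult2b1, a sterol sulfotransferase, had the tightest pairs of these, with 9.94 and 9.98 at 6 h and 8.08 and 8.20 at 24 h (-1.82 ± 0.09, adjusted p = 0.000159). Hspa4l, a relative of the large heat shock proteins, and Adamts6, a secreted protease, returned to within 0.05 and 0.13 of their 0 h level. Utf1 stayed 1.36 above 0 h and Lad1 2.61 above it, having fallen by 1.68 and 1.46 after 6 h. Lonrf1 differed by -1.81 ± 0.26 and Tnnt2 by -2.19 ± 0.41. Ramp3, a receptor accessory protein, and Plagl1, a zinc finger factor, fell without a prior rise (-1.78 ± 0.37 and -1.71 ± 0.25). Ndrg1, a gene of anergy and stress, read 10.91 and 12.45 at 6 h and 10.05 and 9.92 at 24 h (-1.70 ± 0.48), and lay just inside the threshold.

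**Figure D3:**
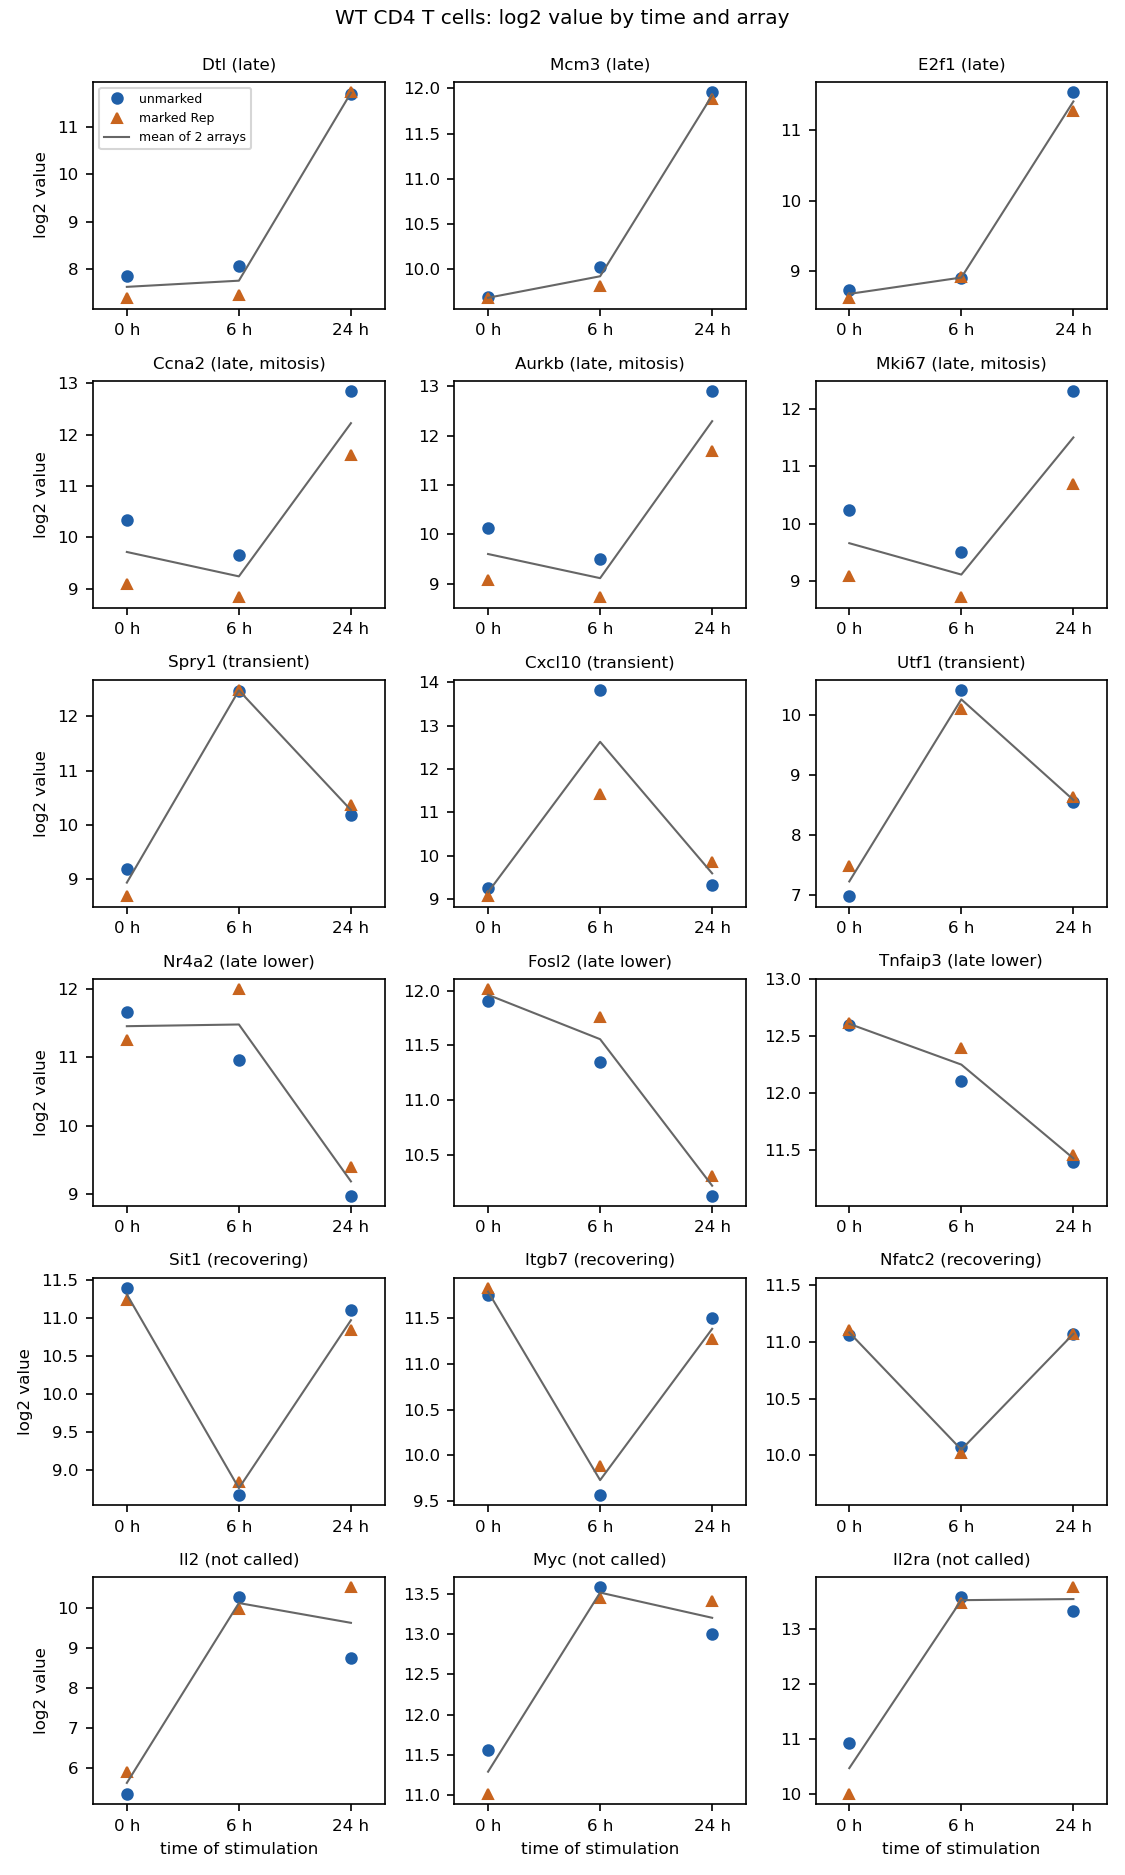
Log2 value of 18 genes (vertical axes, each on its own scale) at 0 h, 6 h and 24 h in WT cells, with a circle for the unmarked array, a triangle for the array marked Rep and a line through the mean of the 2. Dtl, Mcm3 and E2f1 change after 6 h, the mitotic genes differ between the marks, Spry1 peaks near 12.48 at 6 h, Sit1 falls to 8.68 and 8.85 and returns, and Il2 spreads from 8.73 to 10.50 at 24 h.

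Genes of ribosome production stepped down from their 6 h level. Of 34 ribosome biogenesis genes, 19 were lower at 24 h than at 6 h and 0 were higher, and all 34 differences were negative (median -0.44). The same list had a median of 1.67 at 6 h against 0 h and of 1.03 at 24 h against 0 h. Utp20, a factor of the small subunit precursor, read 9.20 and 9.43 at 0 h, 11.62 and 11.66 at 6 h, and 10.36 and 10.88 at 24 h (-1.02 ± 0.16, adjusted p = 0.00414). Nle1, a factor of the large subunit, differed by -0.92 ± 0.11, Heatr1 by -0.82 ± 0.14, and Polr1b, a subunit of RNA polymerase I, by -0.64 ± 0.13. The step was larger within the unmarked arrays (median -0.62) than within those marked Rep (-0.25). Without the 3 unmarked arrays 0 of the 34 were called, and without the 3 marked Rep 13 were. Of 22 cytosolic and mitochondrial chaperones, 4 were lower and 0 higher (median -0.22; 1 lower without the unmarked arrays and 2 without those marked Rep), among them the inducible heat shock gene Hspa1a (-1.28 ± 0.17) and Hsph1 (-0.82 ± 0.12). In the endoplasmic reticulum list, 4 of 23 were lower and 2 higher (0 called without the unmarked arrays, 2 lower without those marked Rep), with the chaperone Hspa5 at -0.46 ± 0.08 and the stress sensor Ern1 at -0.96 ± 0.21. In the translation initiation list, 3 of 17 were lower and 1 higher (0 called without the unmarked arrays, 2 lower without those marked Rep), and in the list of amino acid transport and ATF4 targets 0 of 27 passed in limma (2 higher and 3 lower with the block).

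Of 26 effector cytokines, 1 was higher and 1 lower (2 lower with the block), beside 7.92% and 5.98% of all genes. Fasl, the death ligand, fell from 9.44 and 9.94 to 8.39 and 8.31 (-1.34 ± 0.21, adjusted p = 0.00404), and Lif rose from 10.09 and 10.26 to 10.96 and 11.86 (1.23 ± 0.27, adjusted p = 0.0188). Il2 read 10.26 and 9.96 at 6 h and 8.73 and 10.50 at 24 h, against 5.35 and 5.89 at 0 h. Its stimulated groups overlapped, and the 24 h arrays lay far apart. Ifng (10.25 and 10.55 against 9.69 and 11.00) and Tnf (12.45 and 12.11 against 11.89 and 12.35) overlapped likewise. Il4 was low, at 7.74 and 7.64 against 7.95 and 8.16 (0.36 ± 0.11, adjusted p = 0.0544). Il17f stayed between 6.94 and 7.54 at both times.

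Of 25 cytokine receptor genes, 6 were higher and 1 was lower (median 0.02), and 7 and 2 with the block. Without the unmarked arrays 4 were higher and 1 lower. Il12rb1, a chain shared by the receptors of IL-12 and IL-23, went from 9.37 and 8.94 to 11.37 and 11.95 (2.50 ± 0.22, adjusted p = 0.000447), after 8.36 and 8.16 at 0 h. Il4ra, the chain shared by IL-4 and IL-13, had fallen at 6 h and returned, with 12.79 and 12.81, then 12.02 and 12.01, then 12.92 and 13.00 (24 h minus 6 h, 0.95 ± 0.11). Il2rb differed by 0.68 ± 0.08, Il6ra by 0.97 ± 0.14 and Il10ra by 0.88 ± 0.13, while Il15ra differed by -1.07 ± 0.23. Il2ra, the high-affinity chain of the IL-2 receptor, read 13.58 and 13.47 at 6 h and 13.33 and 13.76 at 24 h and overlapped. Il7r, high on naive cells (14.22 and 14.24), read 10.72 and 11.88 at 6 h and 12.59 and 11.76 at 24 h, which also overlapped (0.87 ± 0.35, adjusted p = 0.149). Among 19 genes of STAT5 signalling and its feedback, 2 were higher and 5 lower. The lower calls came to 1 without the unmarked arrays and 0 without those marked Rep, and the higher ones to 2 in both. Socs2, a feedback inhibitor induced through STAT5, rose from 9.71 and 9.75 to 11.84 and 12.62 (2.50 ± 0.29, adjusted p = 0.00137) and Socs3 by 0.98 ± 0.17. Jak2, Stat5a and the kinase Pim1 differed by -0.87, -0.52 and -0.50.

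Of 28 surface receptors that tune activation, 4 were higher and 2 lower (4 with the block), beside 7.92% and 5.98% of all genes. The list median was -0.09. Without the unmarked arrays 1 was higher and 2 lower, and without those marked Rep 3 and 3. Slamf6, an adhesion receptor of the SLAM family, went from 11.37 and 11.40 to 12.96 and 12.73 (1.46 ± 0.12, adjusted p = 0.000432), close to its 0 h values of 12.64 and 12.54. The inhibitory receptors Lag3 and Ctla4 rose by 0.94 ± 0.18 and 0.64 ± 0.15. Tigit, another inhibitory receptor, differed by -1.07 ± 0.16 and the costimulatory Tnfrsf9 by -1.06 ± 0.19. Of 9 genes used as markers of regulatory T cells, 3 were higher, Izumo1r (2.23 ± 0.20), Gpr83 (1.95 ± 0.27) and Ctla4, and 1 was lower, Ikzf2 (-0.94 ± 0.24). Among T helper lineage factors, 1 of 20 was higher, Zbtb32 (0.98 ± 0.24), and 2 were lower, Ikzf2 and Rora (-0.92 ± 0.26). With the block 4 were higher and 3 lower, without the unmarked arrays 0 and 1, and without those marked Rep 0 and 0. The regulatory T cell markers came to 2 higher and 0 lower without either set.

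Chemokines and interferon-stimulated genes had the lowest medians of the lists, -0.56 and -0.91. Of 15 chemokines, 3 were lower, against 1 without the unmarked arrays and 5 without those marked Rep. Cxcl10, a chemokine induced by interferons, had the largest negative difference of the comparison, -3.03 ± 0.66 (adjusted p = 0.0173), from 13.82 and 11.44 at 6 h to 9.33 and 9.87. The 6 h arrays of this gene lay far apart, and both exceeded both 24 h arrays. Cxcl9 differed by -1.77 ± 0.49 and Ccl5 by -0.67 ± 0.15. Of 29 interferon-stimulated genes, 3 were lower, Rtp4 (-1.68 ± 0.42), Ifih1 (-1.23 ± 0.33) and Xaf1 (-0.79 ± 0.20), and 1 was higher, Zbp1 (0.64 ± 0.16). With the block 8 were lower. The list mean at 6 h was 11.44 on the unmarked and 9.93 on the marked array, against 9.91 and 9.70 at 24 h. Within the marks the median difference was -1.38 and -0.25, and 15 members were called lower without the arrays marked Rep, against 0 without the unmarked arrays. Neutrophil markers and monocyte and macrophage markers were also higher on the unmarked array at that time, and their part in this was not tested.

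Genes that had fallen by 6 h and rose again made up 920 of the called probe sets, against 750 in the late class. That order turned under several alternatives, such as a difference of at least 1 (154 against 379) and without the unmarked arrays (149 against 213). Sit1, a transmembrane adaptor that dampens receptor signals, read 11.39 and 11.23 at 0 h, 8.68 and 8.85 at 6 h, and 11.11 and 10.84 at 24 h (24 h minus 6 h, 2.21 ± 0.20, adjusted p = 0.000543). Abcg3, a transporter, came back from 6.37 and 6.91 to 8.91 and 8.79 (2.21 ± 0.18), and Fanci, a DNA repair protein, from 7.85 and 7.95 to 10.40 and 9.76 (2.18 ± 0.29). Rflnb, a regulator of filamin, recovered in part, with 13.65 and 13.69 at 0 h, 9.57 and 10.17 at 6 h and 12.05 and 11.01 at 24 h (1.66 ± 0.32). St8sia6, a sialyltransferase, recovered in part too (1.33 ± 0.36) and stayed 1.87 below 0 h on the log2 scale. Among 18 integrin and adhesion genes, 5 were higher and 1 was lower (2 with the block), against 3 and 0 without the unmarked arrays. Itgb7, a subunit of gut-homing integrins, went from 9.57 and 9.89 to 11.50 and 11.27 (1.66 ± 0.14), and Itgb3 from 9.47 and 9.78 to 11.57 and 11.20 (1.76 ± 0.14). The adhesion ligands Cd48 and Selplg differed by 1.09 ± 0.11 and 0.72 ± 0.11.

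Of 28 genes of the antigen receptor and its proximal signalling, 5 were higher and 4 lower (median 0.14), and 8 and 4 with the block. Without the 3 unmarked arrays 0 were higher and 1 lower, and without the 3 marked Rep 4 and 1. Themis, a regulator of receptor signals, and the kinase Txk rose by 1.05 ± 0.19 and 0.87 ± 0.13 and stayed below their 0 h level by 0.76 and 0.97. The brakes Ptpn22 and Cblb differed by -0.79 ± 0.13 and -0.64 ± 0.08. In the list of calcineurin and NFAT, 3 of 15 were higher and 2 lower, against 2 and 0 without the unmarked arrays and 3 and 0 without those marked Rep. Nfatc2, an NFAT factor of resting T cells, read 11.06 and 11.10 at 0 h, 10.08 and 10.02 at 6 h and 11.07 and 11.07 at 24 h (1.02 ± 0.10, adjusted p = 0.000635). Ppp3cc, a catalytic subunit of calcineurin, went from 10.47 and 10.60 to 12.06 and 12.07 (1.53 ± 0.11), and the calcium sensor Stim1 rose by 0.81 ± 0.10. Its channel partner Orai1 moved the other way (-0.76 ± 0.12).

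Of 28 genes of quiescence and egress, 4 were higher and 4 lower, against 0 and 0 without the unmarked arrays and 6 and 0 without those marked Rep, and the list median was -0.76 at 6 h against 0 h and -0.57 at 24 h against 0 h. Klf2, which maintains quiescence, read 12.53 and 12.66 at 0 h, 11.70 and 12.19 at 6 h and 11.59 and 11.52 at 24 h (24 h minus 6 h, -0.39 ± 0.16, adjusted p = 0.155). S1pr1, the egress receptor under its control, overlapped between the times (11.86 and 12.55 against 12.53 and 12.28). Klf6 differed by -0.80 ± 0.18 and Ccr7, the lymph node homing receptor, by -0.44 ± 0.09. Id3, an inhibitor of E proteins, rose by 0.88 ± 0.18 and Ripor2 by 0.70 ± 0.13. Gimap7, of a family of lymphocyte GTPases, rose from 9.79 and 9.84 to 11.02 and 11.01 (1.20 ± 0.12), and all 8 measured members of that family had a positive difference, with 2 called (1 without either set of 3 arrays). Of 14 BCL2 family genes, 1 was called, the death inducer Bcl2l11 (-0.76 ± 0.19), with the block 3 were higher and 2 lower, and without either set of 3 arrays 0 were called.

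Metabolic lists moved by gene. Of 22 glycolysis genes, 5 were higher and 1 was lower (median 0.20), against 2 and 0 without the unmarked arrays and 2 and 1 without those marked Rep. Aldoc, an aldolase, went from 7.32 and 6.99 to 9.56 and 9.14 (2.19 ± 0.28) and Pdk1, a kinase that inhibits pyruvate dehydrogenase, from 9.49 and 9.72 to 11.05 and 10.96 (1.40 ± 0.12). Tpi1 and Pfkm rose by 1.15 ± 0.28 and 1.06 ± 0.16, while Hif1a, the factor that induces such genes in hypoxia, differed by -0.45 ± 0.10. Of 30 sterol and fatty acid genes, 5 were higher, among them the desaturase Scd2 (1.56 ± 0.24) and the last enzyme of cholesterol synthesis, Dhcr7 (1.02 ± 0.13). With the block 8 were higher and 3 lower, without the unmarked arrays 2 and 0, and without those marked Rep 3 and 1. The 2 that were lower without it were Acaca (-0.79 ± 0.13) and Fasn (-0.39 ± 0.08), the enzymes that make palmitate. Of 37 oxidative phosphorylation genes, 4 were higher and 0 lower (median 0.14), and 0 were called without either set of 3 arrays. In the proteasome list the 3 called of 32 were the immunoproteasome subunits Psmb8, Psmb9 and Psmb10, higher by 0.50, 0.58 and 0.51. Without either set of 3 arrays 0 proteasome genes were called. Of 29 lysosome and autophagy genes, 5 were higher and 3 lower (9 and 4 with the block, 2 and 0 without the unmarked arrays, 4 and 0 without those marked Rep), with the proton pump subunit Atp6v0d1 at 0.81 ± 0.09.

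Since the series concerns protein phosphatase 2A, its subunits and regulators are given as well. Of 25, 3 were higher and 3 lower (5 and 4 with the block), beside 7.92% and 5.98% of all genes, and the list median was -0.05. Without the 3 unmarked arrays 0 were called, and without the 3 marked Rep 2 were higher and 0 lower. Ppp2ca, the catalytic subunit, read 13.42 and 13.30 at 6 h and 13.24 and 13.18 at 24 h (-0.15 ± 0.08, adjusted p = 0.272). Lcmt1, which methylates that subunit, was higher by 0.77 ± 0.09, as was the chaperone-like Igbp1 (0.56 ± 0.09). Probe sets of the regulatory subunit Ppp2r5c disagreed: the one counted here was called higher (0.57 ± 0.07), another was called lower (-0.44), and the others read -0.28 and -0.14 and were not called. The regulatory subunits Ppp2r3a and Ppp2r2a were lower (-1.38 ± 0.28 and -0.40 ± 0.08).

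Transcripts of other cell types were read beside these results. Of 12 B cell markers, 3 were higher, Cd22 (1.86 ± 0.27), Cd79a (1.08 ± 0.28) and Cd79b (1.01 ± 0.28), and 1 was lower, Cr2 (-1.62 ± 0.32), with list means of 9.04 and 9.46 at 6 h and 10.04 and 9.46 at 24 h. Klrb1b, 1 of 10 NK cell markers, differed by -1.29 ± 0.37 and lay just inside the threshold (adjusted p = 0.0488). It was not called with median centring, with the values as deposited or with array weights. Of 12 dendritic cell markers, Itgax (-0.73 ± 0.13) and Zbtb46 (-0.51 ± 0.10) were lower and Cd74 (0.39 ± 0.11) was higher; 0 were higher and 1 lower without the unmarked arrays, and 2 and 1 without those marked Rep. Without the 3 unmarked arrays 0 B cell markers were higher, and without the 3 marked Rep 5 were. In bulk RNA, fewer cells of a type and less RNA per cell cannot be told apart.

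The PP2Ac transgenic cells were sampled at the same times on other arrays. The means of the genotypes share no array, but the calls share the estimate of spread from the fit of all 12 arrays; WT arrays alone gave 1147 higher and 608 lower. In them 1846 probe sets were higher at 24 h than at 6 h (7.89%) and 1502 lower (6.42%). Of the 1753 called higher in WT cells, 1485 were called higher in transgenic cells, which is 84.7% of the WT and 80.4% of the transgenic calls. Of the 1371 called lower in WT cells, 1019 were called lower in transgenic cells (74.3% and 67.8%). The sign was the same for 1744 of the higher and 1353 of the lower WT calls, and 0 were called in opposite directions. Across all 23410 probe sets the differences of the genotypes correlated with r = 0.918, a description only, since arrays of the same mark deviated together in both genotypes.

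**Figure D4:**
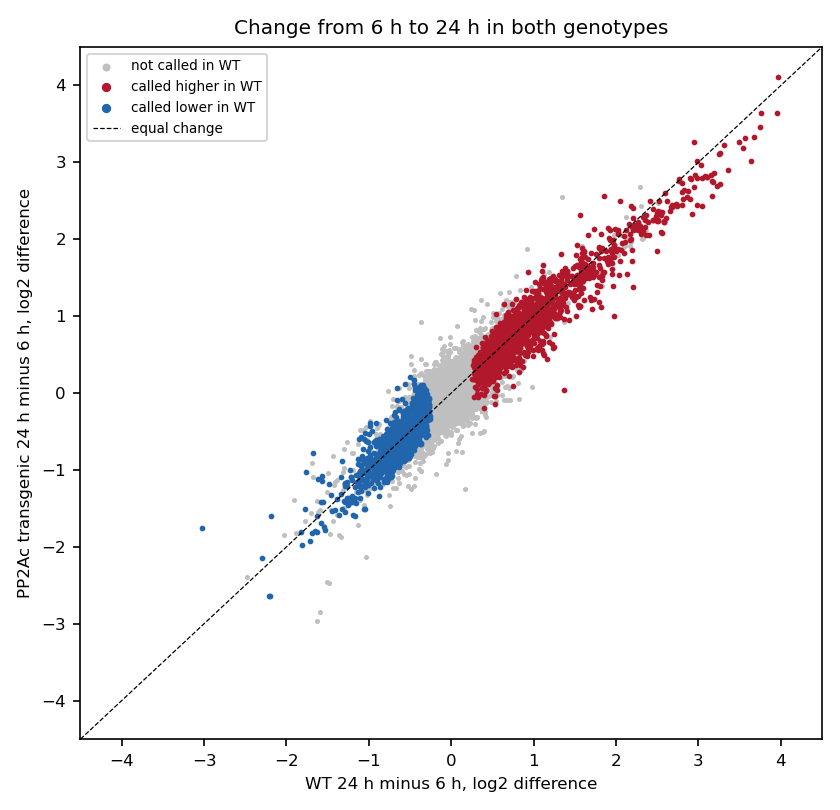
Log2 difference of 24 h minus 6 h in PP2Ac transgenic cells (vertical axis) against that in WT cells (horizontal axis) for each probe set tested, red if called higher in WT, blue if called lower and grey otherwise; the dashed line marks equal change. Points follow the line (r = 0.918), and Cxcl10, at -3.03 in WT, reads -1.75 in transgenic cells.

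Values of named genes can be set beside those in WT cells. Tcf19 differed by 4.11 in transgenic cells, Dtl by 3.64, Mcm3 by 1.85, Spry1 by -2.64, Sit1 by 2.27 and Itgb7 by 1.74. In transgenic cells 45 of 50 replication genes, 38 of 61 mitotic genes and 0 of 34 ribosome biogenesis genes were higher, and 27 of those 34 were lower. Of 23 replication-dependent histone genes 4 were higher, against 9 in WT cells. Of 15 chemokines 0 were called in transgenic cells, against 3 lower in WT cells. Of 29 interferon-stimulated genes 1 was higher and 0 lower (median -0.49, against -0.91 in WT cells). Cxcl10 differed by -1.75 in transgenic cells and did not pass in limma (adjusted p = 0.121). The difference between the genotypes in this step, transgenic minus WT, was called for 0 probe sets (0.0%) by limma, with 488 at an unadjusted p under 0.05, and for 0 with the block. The 5 genes of smallest p in that test, Neto1, Tmem184a, Igbp1b, Hmcn1 and Krtap5-2, all had WT means under 7 on the log2 scale, and none passed. Whether steps that were called in 1 genotype alone differ between them is therefore not shown.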

How the data were processed

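RNA of 12 samples was read on 1 array each, and the deposited table holds log2 values per probe set. The steps by which the authors summarised and normalised the arrays before they were deposited are not given in the sources used here. Deposited values were quantile normalised between arrays. Group means were fitted to all 12 arrays with limma 3.58.1 in R 4.3.3, with 6 residual and 3.05 prior degrees of freedom, and calls used a Benjamini-Hochberg adjusted p under 0.05. All adjusted p-values printed are limma's, over the 23410 probe sets with a symbol. Counts over all probe sets and by time class can hold several probe sets of 1 gene. In the gene lists each gene was read by 1 probe set. Other probe sets of some named genes differed in size, such as those of Socs2 (1.69), Socs3 (0.50), Rpa3 (0.82) and Acaca (-1.015). The number of arrays limits the precision.

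The mark Rep was checked for a difference shared between groups. Deviations of same-marked arrays correlated in all 15 pairs of groups (0.138 to 0.591). The marks thus shared a difference, whose source was not tested, and the block was fitted as an alternative. SEs, adjusted p-values and calls printed come from the fit without the block unless another fit is named. A gene that did not pass in that fit can pass with the block, as Plk1 and Cd69 did. Other alternatives changed the normalisation, moderation, array weights, probe sets or arrays used.

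Named genes were the largest differences, members of gene lists or time classes, and a fixed list. Mcm7, Cdc6, Mcm10, Pcna, Ccna2, Cdk1, Aurkb, Plk1, Pttg1, Cad, Ppp1r15a, Il15ra and Pim1 were chosen after their values were seen. Members and lists were chosen with earlier results of these data known. Ccnb1 was not analysed here. Promoters were taken from RefSeq (GRCm38.p6). The fit was tested on simulated data.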

Additional observations from a re-analysis of the deposited data

Results flagged for a closer look

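Probe sets without a gene symbol were used in no comparison above. When all rows of the table were fitted, 319 of the 5443 such probe sets (5.86%) passed the limma test between 6 h and 24 h in WT cells, 98 of them higher at 24 h. What they measure was not analysed here.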

How the results depend on the processing

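Counts moved with the settings, and the cause was not tested. In order higher and lower in WT cells from 6 h to 24 h, then transient, progressive, late, recovering, late lower and further lower, the counts were as follows. A difference of at least 1 gave 545, 117, 51, 12, 379, 154, 64 and 2. Fitting the compared groups only gave 587, 171, 100, 29, 281, 277, 68 and 3. Leaving out the 3 arrays marked Rep gave 881, 513, 372, 18, 348, 515, 135 and 6, and leaving out the 3 unmarked WT arrays gave 375, 143, 55, 13, 213, 149, 75 and 13; both were chosen after seeing the data. Leaving out 1 array gave 867 to 1493, 418 to 1109, 214 to 673, 31 to 65, 364 to 849, 438 to 821, 151 to 660 and 12 to 55, with the fewest calls in both directions (867 and 418) without the unmarked WT 24 h array. WT arrays alone gave 1147 higher, 608 lower, 299 transient, 55 progressive, 565 recovering, 284 late lower and 25 further lower. The replicate block gave 2059 lower, 138 progressive and 215 further lower. Median centring gave 861 lower, 384 late lower and 39 further lower. Array weights gave 58 further lower and leaving out the 40% dimmest probe sets 148. In transgenic cells, a difference of at least 1 gave 533 higher and 153 lower, and leaving out 1 array 829 to 1509 and 526 to 972. From 0 h to 6 h a difference of at least 1 gave 841 and 803, 1572 and 1790 were called without the unmarked arrays, and 2070 were lower without those marked Rep. From 0 h to 24 h the values were 819 and 536 for a difference of at least 1, 1591 and 1279 without the arrays marked Rep, 1897 and 1961 without the unmarked ones, and 1941 to 2520 lower without 1 array. The difference between genotypes stayed at 0 calls in every alternative run for it. Genes that did not pass the test changed sign in places. Without the unmarked WT arrays Cdkn1b was at -0.14, Il2 at 0.54, Ifng at 0.45, Tnf at 0.25, Il7r at -0.12 and S1pr1 at -0.28, and without those marked Rep Fos was at 0.30 and Il2ra at -0.25. Without 1 array, Fos ran from -0.52 to 0.20, Il2 from -1.38 to 0.39, Ifng from -0.71 to 0.60, Tnf from -0.39 to 0.07, Il2ra from -0.19 to 0.23 and S1pr1 from -0.15 to 0.55. Il4, Irf4, Il7r, Klf2 and S1pr1, not called above, passed under some alternative, as did Pcna, Plk1, Pttg1 and Cd69. Of 170 called genes named, 45 kept their call under every alternative other than the minimum difference.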
